A study of Rattus norvegicus with 18 samples.

Results

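The genes described are those for the entry of glucose and lactate into cells and for the kinases that switch off pyruvate dehydrogenase: Slc2a1, Slc2a3, Slc16a1, Pdk1, Pdk2 and Pdk4. They were taken as all probe sets whose single gene symbol in the platform annotation is one of these 6, which gave 10 probe sets of the 8799 on the array, for all 6 of these genes among the 4736 with 1 symbol there. Of these 10, 8 lay among the 4370 probe sets bright enough to be tested, and the other 2, 1 of the pair for Slc2a3 and the only set for Pdk4, are given as values without a test. The choice used gene names and no measured value, but it was made with earlier results of these data known.

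The tissue was the suprachiasmatic nucleus (SCN), the part of the hypothalamus that holds the master circadian clock, taken from adult male Long-Evans rats with no genetic change or drug named in the labels. The rats had been kept in 12 h of light and 12 h of darkness and then in constant darkness from the usual lights-off, and 5 were killed under isoflurane at each time point, every 6 h from circadian time (CT) 0, the projected lights-on. Their RNA was pooled into 1 sample per time point and read on the rat U34A array of oligonucleotide probe sets, with a single dye. The 8 time points used here (0, 6, 12, 18, 24, 30, 36 and 42 h) were read by 18 arrays: 10 in a first run, where the 24 h and 36 h pools each had an array a and an array b, and 8 in a technical repeat. Each CT was thus sampled on 2 days by 2 pools, and each pool was treated as 1 replicate, so that p-values measure the spread between pools and not between single rats. In pooled tissue, fewer cells of a type and less RNA per cell cannot be told apart.

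Glucose crosses the blood-brain barrier and enters glia mainly through the carrier encoded by Slc2a1 (GLUT1) and enters neurons mainly through that encoded by Slc2a3 (GLUT3), while Slc16a1 (MCT1) carries lactate, pyruvate and ketone bodies. Pyruvate dehydrogenase commits pyruvate to oxidation in the mitochondrion, and the kinases Pdk1 to Pdk4 phosphorylate its first subunit and so inhibit it. The SCN takes up more glucose in the subjective day than in the subjective night, as is known from tracer studies in rats.

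The promoters of 5 of the 6 genes were in the RefSeq table for the GRCr8 rat assembly. They were searched on both strands, over the 250 bases before the listed start site. The letters were CACGTG, the E-box that the clock activators CLOCK and BMAL1 bind, and ACGTG, a form of the core bound by hypoxia-inducible factors. Other forms of that core were not searched. Also sought were TTATGTAA, the D-box bound by DBP and its relatives, and AGGTCA, a nuclear receptor half-site. The E-box letters were in the promoters of Slc16a1 and Pdk2, and in 5.59% of the 33469 promoters of the table. This form of the core, ACGTG, which every E-box also holds, was found outside an E-box only in the promoter of Slc2a1. Counted inside or outside an E-box, it was in the promoters of Slc2a1, Slc16a1 and Pdk2, and in 16.6% of all promoters. The D-box letters, in 0.828% of promoters, and the half-site, in 14.1%, were in none of the 5. These 3 promoters are shown because their genes carry most of the results that follow, with the E-box (Slc16a1, Pdk2) or the core (Slc2a1) in capitals, 5′ to 3′ on the strand of the gene.
Slc16a1, chr2:194812410-194812659, plus strand: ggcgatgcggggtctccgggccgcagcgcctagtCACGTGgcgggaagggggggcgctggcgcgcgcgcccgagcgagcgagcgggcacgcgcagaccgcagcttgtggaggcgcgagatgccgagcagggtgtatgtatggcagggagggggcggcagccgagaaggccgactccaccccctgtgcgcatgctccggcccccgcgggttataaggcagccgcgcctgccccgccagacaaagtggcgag
Pdk2, chr10:80483913-80484162, minus strand: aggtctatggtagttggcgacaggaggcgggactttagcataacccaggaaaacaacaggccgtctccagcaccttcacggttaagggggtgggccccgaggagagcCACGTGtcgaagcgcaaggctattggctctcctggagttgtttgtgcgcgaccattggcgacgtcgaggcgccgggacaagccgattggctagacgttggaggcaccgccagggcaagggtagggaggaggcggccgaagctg
Slc2a1, chr5:138002272-138002521, plus strand: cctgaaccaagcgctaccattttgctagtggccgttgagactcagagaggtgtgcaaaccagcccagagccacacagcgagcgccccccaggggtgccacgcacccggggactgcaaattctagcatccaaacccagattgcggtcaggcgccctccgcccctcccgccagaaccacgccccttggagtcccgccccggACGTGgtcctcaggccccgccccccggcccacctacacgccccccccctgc
The E-box began 216 bases before the start in Slc16a1 and 143 bases before it in Pdk2, and the core began 51 bases before the start in Slc2a1. A match is only a run of letters in this window. The whole genes lie at chr2:194805556-194832966 (Slc16a1), chr10:80469388-80483988 (Pdk2) and chr5:138002522-138030742 (Slc2a1), with Slc2a3 at chr4:157632887-157698034, Pdk4 at chr4:34558327-34568329 and Pdk1 at chr3:77113464-77144145. In Slc16a1, Pdk2 and Pdk1 the listed start lies inside the gene's outer bounds.

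The values are the authors' deposited intensities, scaled so that every array has nearly the same trimmed mean, between 500.7 and 500.8. The median intensity was 136 to 152 on the arrays of the first run and 108 to 128 on those of the repeat, so the runs differ in shape and not in that mean. Arrays of the same pool shared little beyond the run and a fitted 24 h course. With the run and a 24 h cosine and sine as terms, the correlation within a pool estimated over all tested probe sets was -0.04. Of the first run, 3 arrays (12 h, 18 h and 36 h b) stood apart, with a geometric mean of the 9 hybridisation control probe sets, RNA added before hybridisation, of 4801 to 6370.3, against 1339 to 2417 on the other 7 and 1118 to 2319.9 on the 8 repeat arrays. The ratio of the 3′ to the 5′ probe set of Gapdh, a measure of RNA or labelling quality, ranged from 8.55 to 35.2 in the first run and from 14.3 to 24.8 in the repeat. Among peptides of the SCN, Avp had a mean intensity of 1732, Penk 1403 and Nmu 486, all tested, while Vip, a defining peptide of its core, read only 49.0 and was not tested. Oxt, of neighbouring hypothalamic neurons, read 3034 and was tested too.

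No member probe set passed an adjusted p of 0.05 for a 24 h rhythm, for either phase difference or for the difference between days. Rhythm was tested by fitting a cosine and a sine of 24 h to the 8 log2 pool means with limma and adjusting over all 4370 tested probe sets by Benjamini-Hochberg. By that rule 0 of 8 members and 0% of all tested probe sets were called, and at an unadjusted p under 0.05, 1 of 8 members (Pdk2) against 6.36% of all. The median fitted amplitude, measured on the log2 scale from the mid-level to the peak, was 0.15 over the members and 0.16 over all tested probe sets. Into simulated data of the same size, 100 rhythms with an amplitude of 0.5 and 100 with an amplitude of 1 were planted. Of the former 39% and of the latter 90% were called, and all members' amplitudes lay below 0.5. So many true rhythms ease the Benjamini-Hochberg threshold, so these shares would be lower where few are present.

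CT 12 against CT 0, the ends of the subjective day, gave 0 of 8 members called against 0% of all, and 1 of 8 at an unadjusted p under 0.05 (Pdk2 again) against 8.67% of all. CT 6 against CT 18, mid-day against mid-night in the rats' own time, gave 0 of 8 called against 0.0229% of all. That share is 1 probe set, of Rasl11b, named after its value was seen. It was 1.56 ± 0.18 SE higher on the log2 scale at CT 6 (limma adjusted p = 0.0281). With any single pool left out, or in either run alone, no probe set was called, while 1 was under quantile or median scaling. At an unadjusted p under 0.05 this contrast gave 0 of 8 against 4.26%. The second day against the first gave 0 of 8 called against 0% of all, and 2 of 8, both of Slc16a1, against 3.96% at an unadjusted p under 0.05.

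**Figure D1:**
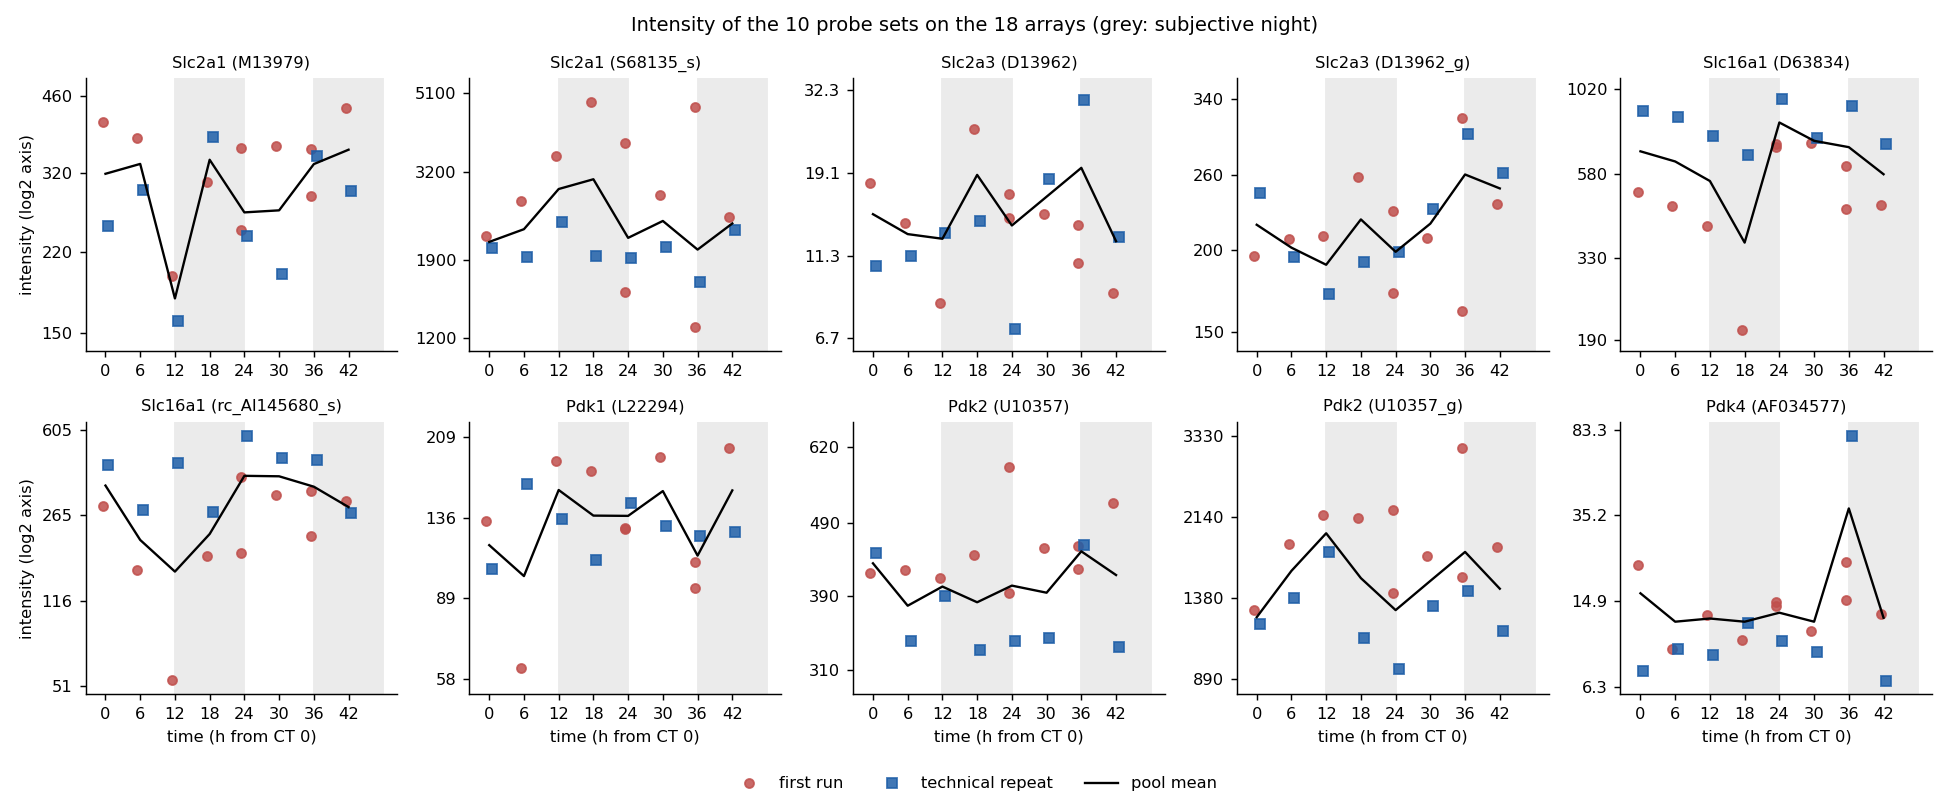
Intensity of the 10 probe sets (log2 axis) against time in h from CT 0 on the 18 arrays, with circles for the first run, squares for the technical repeat, a line for the pool mean after the floor of 12.1, and grey for the subjective night. Both Slc16a1 sets lie higher in the repeat, Pdk2 (U10357_g) is lowest at 0 and 24 h and highest at 12 and 36 h, and Pdk4 stands out at 36 h in the repeat.

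Slc2a1 was read by 2 probe sets, S68135_s with a mean intensity of 2387 and M13979 with 293. For S68135_s the first run read 2189.9, 2689, 3514, 4831, 2443, 2792, 2448 and 2451 from 0 to 42 h, with arrays a and b averaged, and the repeat read 2043, 1934, 2379, 1941, 1921, 2052, 1668 and 2269. The first run was the higher in all 8 pools, and its peaks at 12 and 18 h were much lower in the repeat. Its fitted amplitude was 0.13 ± 0.11 (SE, n = 8 pools, limma adjusted p = 0.86), with 0.24 in the first run and 0.04 in the repeat.

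The 2 arrays of 1 pool differed more for this Slc2a1 set than for any other of the 10. At 24 h array a read 1574 and array b 3792, a 2.41-fold gap, and at 36 h array a read 1277 and array b 4695, a 3.68-fold gap. On the log2 scale these gaps are 1.27 and 1.88, where the median size of the gap over all tested probe sets was 0.43 at 24 h and 0.52 at 36 h. The 3 arrays with the highest hybridisation controls gave 3514 to 4831, the other 7 of the first run 1277 to 3792, and the repeat 1668 to 2379. Array b at 24 h, at 3792, had controls of 2336, within the range of those 7 arrays. The part of the hybridisation controls in this was not tested.

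**Figure D2:**
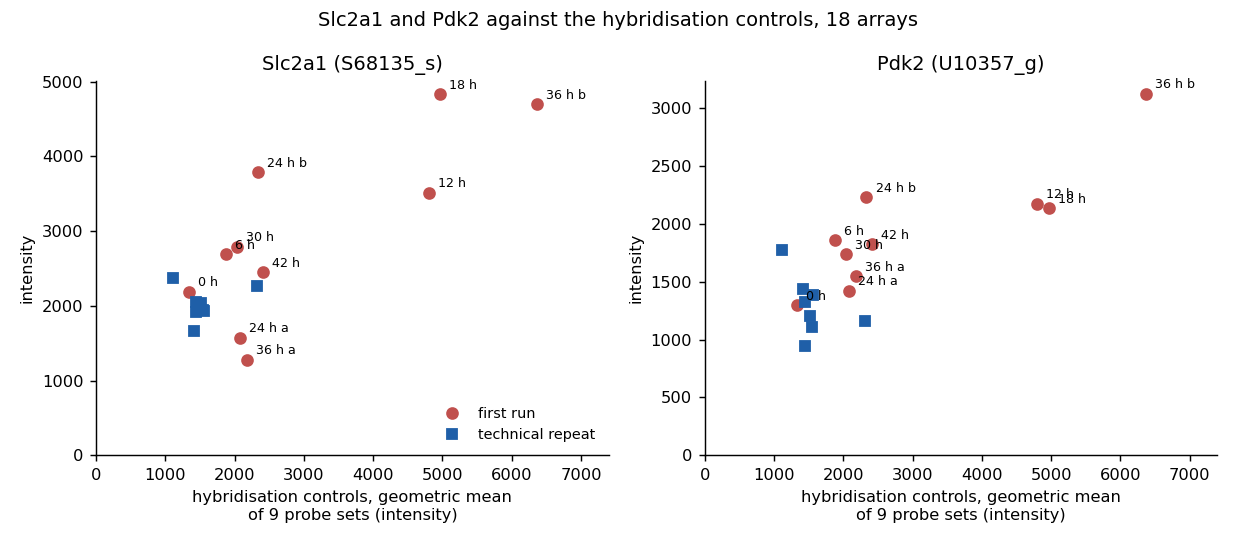
Intensity of Slc2a1 (S68135_s, left) and Pdk2 (U10357_g, right) on the 18 arrays against the geometric mean intensity of the 9 hybridisation controls, with circles for the first run, labelled by time and array letter, and squares for the repeat. The 3 arrays with controls of 4801 and above give 3514 to 4831 for Slc2a1 and 2136 to 3124 for Pdk2, and 24 h b is also high for both.

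The other Slc2a1 set, M13979, followed a different course. Its first run read 406.5, 377, 197, 305, 297, 362, 320.2 and 434, and its repeat 249, 294.5, 159, 378.5, 237, 198, 346.5 and 293. It was lowest at 12 h in both runs, but at 36 h, the same circadian time a day later, it was not low in either. CT 12 and CT 0 differed by -0.26 ± 0.30 in log2 intensity (2 pools per phase, SE from the fit to all 8 pools, limma adjusted p = 0.82). Over the 8 pools the log2 levels of the Slc2a1 sets correlated at r = -0.38, which describes 8 points sharing arrays and no more. The CT 18 pools, 340.0 and 356, lay above the CT 6 pools, 333 and 268, by less than their spread (CT 6 minus CT 18 of -0.22 ± 0.30, SE, 2 pools per phase, limma adjusted p = 0.97).

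Slc2a3, the neuronal glucose carrier, was measured by D13962_g, with a mean intensity of 219. The pool means from 0 to 42 h were 219, 202, 189.8, 223, 199, 219, 261 and 248, a range of 1.37-fold. The highest pool was 36 h, where the repeat read 301 and arrays a and b of the first run read 161 and 318. Mean levels were 208 at CT 0, 210.3 at CT 6, 223 at CT 12 and 235 at CT 18, and the amplitude was 0.09 ± 0.10 (SE, n = 8 pools, limma adjusted p = 0.90). The CT 18 pools lay just above the CT 6 pools, with a CT 6 minus CT 18 of -0.16 ± 0.20 on the log2 scale (SE, limma adjusted p = 0.97). The companion set D13962 read at most 30.3 and was at or below the floor of 12.1 on 6 of 18 arrays, so it gives no course.

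Slc16a1, the lactate and ketone body carrier, was lower at CT 12 and CT 18 than at CT 0 in the means of both of its probe sets, and no phase difference that was tested passed. For D63834, with a mean intensity of 614, the first run read 513, 468, 409.6, 203, 699.9, 711, 527 and 471, and the repeat 886, 847, 745, 657, 955, 735, 911 and 709.9. The lowest pool was 18 h in both runs, and the other CT 18 pool, at 42 h, was lower than the rest of its day in the repeat and in the first run. Mean levels were 742 at CT 0, 675 at CT 6, 619 at CT 12 and 459.8 at CT 18. The mean at CT 6 was 1.47-fold above that at CT 18. This log2 difference of 0.55 ± 0.27 (SE, 2 pools per phase) did not pass the test (limma unadjusted p = 0.0681, adjusted p = 0.97). Within the runs the difference was 0.90 in the first and 0.21 in the repeat. Its fit peaked at CT 4.31 with an amplitude of 0.31 ± 0.14 (n = 8 pools, limma adjusted p = 0.78). The lowest reading, 203 at 18 h, was on one of the 3 arrays with bright controls. Without these 3 arrays the amplitude was 0.08, though the 12 h and 18 h pools are then read by the repeat alone and carry the difference between the runs. It was 0.19 without them when single arrays were fitted with the run as a term, and 0.16 without the 18 h pool.

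The second Slc16a1 set, rc_AI145680_s, with a mean intensity of 280.4, read 289, 156, 54.3, 179.5, 266, 323, 269.9 and 304 in the first run and 432.5, 281, 439, 274, 567.8, 463, 453 and 271.5 in the repeat. Its lowest value, at 12 h of the first run, was not low in the repeat. The mean at CT 0 lay above that at CT 12, at 371 against 232. The log2 difference of CT 12 minus CT 0 was -0.67 ± 0.38 (SE, 2 pools per phase, limma adjusted p = 0.63). That difference was -1.20 in the first run and -0.15 in the repeat. The low reading at 12 h was also on an array with bright controls. The fitted amplitude of 0.35 became 0.08 without the 3 arrays, 0.01 when the run was also a term, and 0.15 without the 12 h pool. The peaks fitted to the Slc16a1 sets were 3.35 h apart, and their pool means correlated at r = 0.64.

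Both Slc16a1 sets were higher on the second day at all 4 phases. D63834 had a mean of 541 on day 1 and 698 on day 2, a 1.29-fold difference (0.37 ± 0.16 on the log2 scale, SE, 4 pools per day, unadjusted p = 0.0499, limma adjusted p = 0.997). For rc_AI145680_s the means were 224 and 351, a 1.56-fold difference (0.64 ± 0.19, unadjusted p = 0.00646, limma adjusted p = 0.997). Neither passed the test, the pools of the days overlapped for both, and the log2 difference shrank from 0.66 in the first run to 0.08 in the repeat for D63834 and from 1.00 to 0.29 for rc_AI145680_s. Of the 3 arrays with bright controls, those at 12 h and 18 h are of day 1 and hold the lowest readings of these sets. Without the 3 arrays the day difference of D63834 was 0.02, or 0.22 with the run as a term, and that of rc_AI145680_s was 0.23, or 0.39 with the run as a term.

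Pdk1, a kinase also known as a target of hypoxia-inducible factors, had 1 probe set, L22294, with a mean intensity of 133. The first run read 134, 61.4, 184, 174, 129, 188, 100.5 and 197, and the repeat 104, 163, 135, 109, 147, 131, 123.5 and 126. Where the first run was lowest, at 6 h, the repeat was highest, and the runs correlated at r = -0.50 over the 8 pools. The error of a pool mean, taken from the difference between the runs, was 0.35 on the log2 scale. It exceeds the SD of 0.25 over the pools, as it must wherever the runs correlate negatively. A time course of Pdk1 could not be read at this precision (amplitude 0.12 ± 0.13, SE, n = 8 pools, limma adjusted p = 0.90).

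Pdk2, the most widely expressed of the kinases, had the smallest rhythm p-value among the members. For its brighter set, U10357_g, the first run read 1294, 1856, 2173, 2136, 1779, 1738, 2198 and 1826 from 0 to 42 h, and the repeat read 1199.8, 1383, 1776, 1111, 942.5, 1325, 1434 and 1159. In the pool means, CT 0 was lowest and CT 12 highest on both days, at 1246 and 1295 against 1964 and 1775. Mean levels were 1270.3 at CT 0, 1559 at CT 6, 1867 at CT 12 and 1497 at CT 18. CT 12 was 1.47-fold above CT 0, a log2 difference of 0.56 ± 0.16 (SE, 2 pools per phase) that did not pass the test over all probe sets (unadjusted p = 0.00682, limma adjusted p = 0.51).

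The fitted Pdk2 rhythm reached 0.28 ± 0.08 (amplitude ± SE, n = 8 pools) and peaked at CT 11.6 (unadjusted p = 0.0210, limma adjusted p = 0.75). An exact permutation of the 8 pools, which has 315 distinct arrangements and cannot give less than 0.00317, gave p = 0.00635, unadjusted. Within the runs the amplitude was 0.27 in the first, peaking at CT 13.0, and 0.32 in the repeat, peaking at CT 10.4, and CT 12 exceeded CT 0 on each day of each run, by 0.30 to 0.75 on the log2 scale. The amplitude lay at the 83.5th percentile of the tested probe sets, so many other probe sets moved as far. In each run the Gapdh 3′ to 5′ ratio was lowest on a CT 0 array, 8.55 at 0 h of the first run and 14.3 at 24 h of the repeat. U10357_g read 1294 and 942.5 on these arrays, its lowest of each run. On the other CT 0 arrays of the first run, 24 h a and b, the ratio was 32.5 and 26.6. The part of this ratio in the Pdk2 course was not tested. The 3 arrays with the brightest hybridisation controls, all at CT 12 or CT 18, gave 2136 to 3124 for U10357_g, against 1294 to 2228 on the other 7 of the first run. Without these arrays CT 12 minus CT 0 was 0.36 in log2 intensity (limma unadjusted p = 0.0992), or 0.33 with the run as a term (unadjusted p = 0.1004), and the amplitude was 0.23 or 0.18. These settings, here and for the other members, were added after the data were seen.

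The other Pdk2 set, U10357, with a mean intensity of 407, did not share this course. Its pool means were 432, 379, 402, 383, 403, 394, 448 and 417, a range of 1.18-fold, and its amplitude of 0.03 ± 0.09 (SE, n = 8 pools, limma adjusted p = 0.98) was at the 2.11th percentile of the tested probe sets. The Pdk2 sets correlated at r = -0.07 over the pools. What part of the transcript each set reads was not analysed here.

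**Figure D3:**
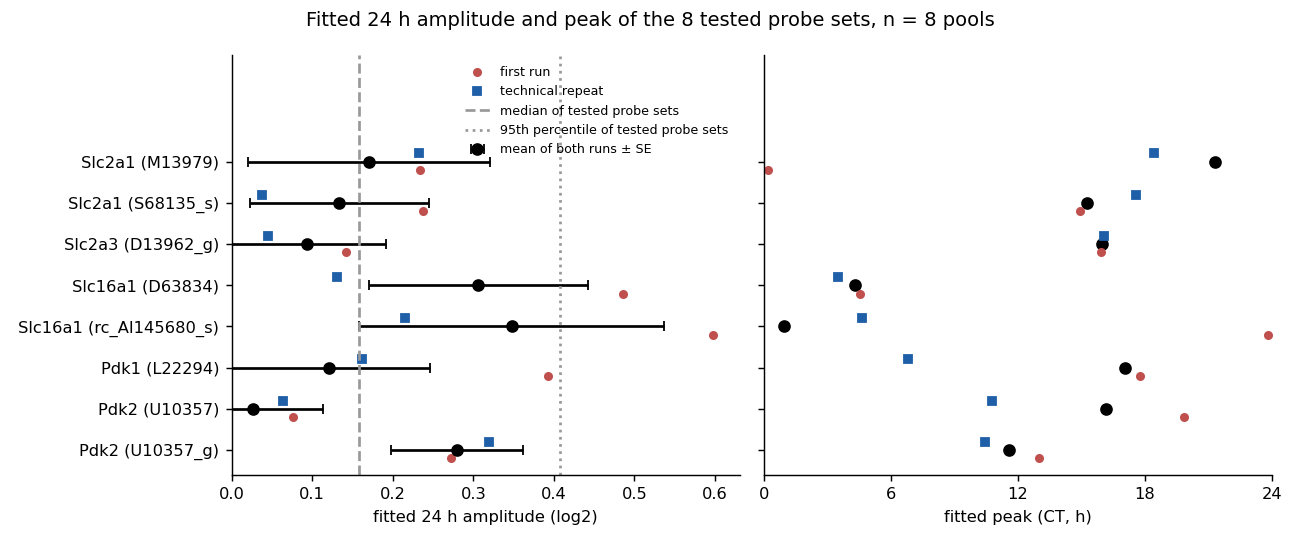
Left, fitted 24 h amplitude (log2) of the 8 tested probe sets from the mean of both runs with its SE (black, n = 8 pools) and from each run (circles first run, squares repeat), with lines at the median (0.16) and the 95th percentile (0.41) of all tested probe sets. Right, fitted peak in CT, with first-run and repeat peaks at 13.0 and 10.4 for Pdk2 (U10357_g) and at 4.52 and 3.51 for Slc16a1 (D63834).

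Pdk4, the kinase induced by fasting in heart and muscle, was at or near background: 10 of 18 arrays read at or below the floor of 12.1, and the first run reached 22.1 at most. A single array, 36 h of the repeat, read 78.2, while arrays a and b of the same pool read 15.0 and 22.1. The peak at 36 h in the plot of intensities by time rests on this reading.

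More members were called between the runs than between times of day. On the 8 within-pool differences of repeat minus first run, 4 of 8 members were called by limma against 48.4% of all tested probe sets, 2 of them higher in the repeat against 20.9% of all and 2 lower against 27.5%. Both Slc16a1 sets were higher in the repeat, D63834 1.69-fold (0.76 ± 0.16 on the log2 scale, SE, n = 8 pools, limma adjusted p = 0.00227, higher in 8 of 8 pools) and rc_AI145680_s 1.87-fold (0.91 ± 0.27, adjusted p = 0.0163, higher in 7 of 8). Slc2a1 (S68135_s) and Pdk2 (U10357_g) were lower in the repeat in all 8 pools, by -0.49 ± 0.14 (limma adjusted p = 0.0132) and -0.54 ± 0.12 (limma adjusted p = 0.00371). These are differences between readings taken to be of the same RNA. Without arrays b the difference of Slc2a1 (S68135_s) was -0.29, and without the 3 arrays with bright controls -0.18, and it was no longer called in either case. With each array scaled to a common median in place of the trimmed mean, the median of all probe sets moved from -0.06 to 0.24, 73.9% instead of 43.2% of the called probe sets were higher in the repeat, and 3 members were called higher and 0 lower.

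Over the 8 pools the runs correlated at a median r of 0.13 over the tested members and 0.09 over all tested probe sets, with 6 of 8 members and 58.5% of all above 0. The highest values among the members were 0.63 for Slc16a1 (D63834), 0.49 for Slc2a1 (M13979) and 0.37 for Pdk2 (U10357_g). The error of a pool mean was larger than the SD over pools in 2 of 8 members, Pdk1 and Pdk2 (U10357). The same held for 41.5% of all tested probe sets. By its formula the error exceeds the SD wherever r is below 0, so these shares only restate those of r.

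Around the members, 6 lists of genes of the same metabolism were examined, each gene by its brightest probe set, and in none of them did any gene pass the test for rhythm, phase or day. Of 18 other glucose and monocarboxylate carriers and their partners, 11 were on the array and 7 were tested, with a median amplitude of 0.15. The smallest rhythm p-values were those of Slc2a4, the insulin-responsive glucose carrier (amplitude 0.32 ± 0.13, peak CT 8.42, limma adjusted p = 0.76), and Slc16a6 (0.26 ± 0.11, peak CT 4.41, adjusted p = 0.78). Slc2a2, the carrier of liver and pancreatic islets, read 12.8, next to the floor.

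Of 13 genes for pyruvate dehydrogenase, its phosphatases and pyruvate entry, 9 were on the array and 5 were tested, with a median amplitude of 0.11. Dlat, the acetyltransferase subunit of the complex, peaked at CT 9.77 in the fit (0.16 ± 0.10, limma adjusted p = 0.80), and Mpc1, a subunit of the mitochondrial pyruvate carrier, at CT 8.70 (0.14 ± 0.11, adjusted p = 0.84). The phosphatases Pdp1 and Pdp2, which reverse the kinases' action, read 61.7 and 63.4 and were not tested.

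Of 27 glycolytic and lactate dehydrogenase genes, 19 were on the array and 13 were tested, with a median amplitude of 0.11. Pfkfb1, which makes and breaks down the activator of phosphofructokinase, peaked at CT 12.9 in the fit (amplitude 0.34 ± 0.11, limma adjusted p = 0.75) and was 0.65 ± 0.23 higher at CT 12 than at CT 0 on the log2 scale. Aldoc, the aldolase of astrocytes, peaked at CT 19.3 (0.18 ± 0.09, limma adjusted p = 0.79). Of these 13 genes, 6 were higher and 7 lower at CT 12 than at CT 0.

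Of 19 genes of the tricarboxylic acid cycle, 10 were on the array and 8 were tested, with a median amplitude of 0.16. Suclg1, a subunit of succinyl-CoA ligase, was 0.45 ± 0.21 higher, and Sdha, a subunit of succinate dehydrogenase, 0.39 ± 0.18 lower, at CT 12 than at CT 0 on the log2 scale, and neither passed the rhythm test (limma adjusted p = 0.78 for both). The cycle genes had no common direction: 4 were higher and 4 lower at CT 12.

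Of 13 targets of hypoxia-inducible factors, 8 were on the array and 3 were tested. P4ha1, a collagen prolyl hydroxylase, peaked at CT 22.1 (amplitude 0.36 ± 0.13), and Hmox1, haem oxygenase, at CT 6.27 (0.28 ± 0.14; limma adjusted p = 0.75 and 0.78). Of 17 genes that respond to fasting, PPAR or glucocorticoids, 10 were on the array and 9 were tested. Sgk1, a kinase induced by glucocorticoids, was 1.02 ± 0.43 higher at CT 12 than at CT 0 on the log2 scale (unadjusted p = 0.0385), and Ucp3, a mitochondrial uncoupling protein, had an amplitude of 0.38 ± 0.21 (limma adjusted p = 0.76 and 0.80 for their rhythms).

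Between the runs, 21 of the 45 tested genes of these lists were called, or 46.7%, near the 48.4% of all tested probe sets. Called higher in the repeat were Emb, Pdha1, Dlat, Pfkfb2, Cpt1a, Acadm, Sgk1 and Nr3c1, and called lower were Slc2a4, Slc16a3, Bsg, Pc, Pfkfb1, Aldoa, Pgk1, Eno1, Idh3g, Idh2, Mdh2, Hmox1 and Cpt2. Bsg, the partner protein that brings Slc16a1 to the cell surface, was 0.64 lower in the repeat on the log2 scale, where Slc16a1 was higher.

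**Figure D4:**
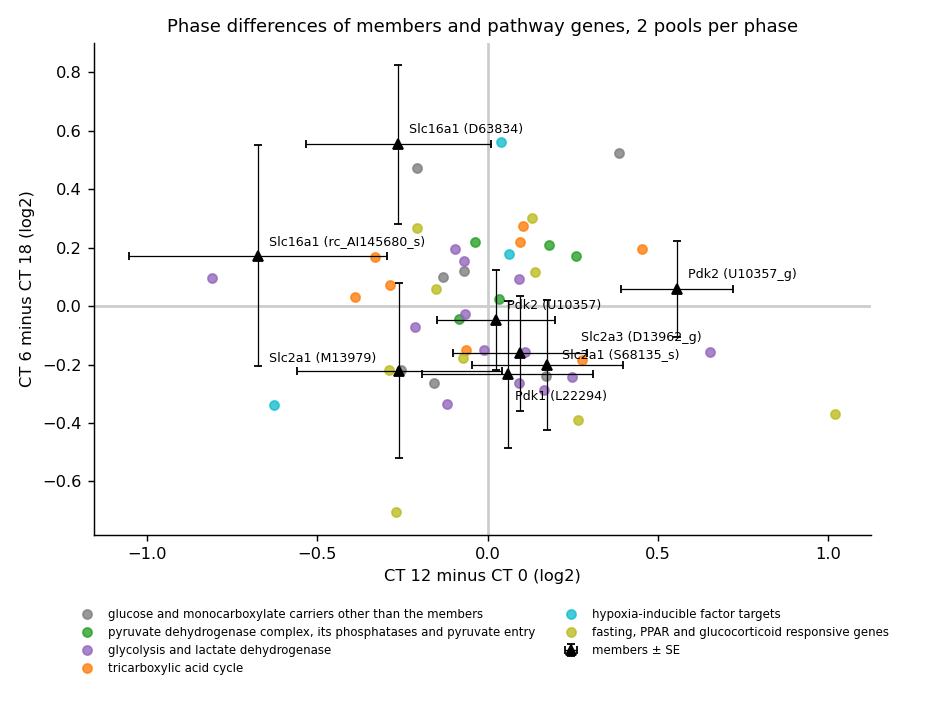
Log2 difference CT 6 minus CT 18 against CT 12 minus CT 0 (2 pools per phase) of the 8 tested member probe sets (triangles with SE) and of the tested genes of the 6 lists (dots coloured by list). Pdk2 (U10357_g) lies at 0.56 to the right, both Slc16a1 sets lie to the left and above 0, and the list genes scatter around 0 on both axes.

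The genes whose course over the 8 pools was most like that of a member were named by Pearson's r of the log2 pool means, among the 3588 tested probe sets with 1 symbol. The highest of so many values over 8 points is large in any case, so r is also given within each run, the first run first. The pool means by which the genes were picked are averages of these runs, so the values within runs are no independent check. For Pdk2 (U10357_g) they were Grk6 (r = 0.98), Dbp (0.97) and Cabin1 (0.95). Dbp, a transcription factor of the clock's output, had r = 0.80 in each run and peaked at CT 11.7 in the fit (amplitude 0.64). Its other probe set correlated with Pdk2 at 0.80. For Grk6 the r within runs was 0.76 and 0.30, and its other probe set correlated at 0.15. For Cabin1 these values were 0.65, 0.45 and 0.74.

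For Slc16a1 (D63834) they were Cnr1, the brain's cannabinoid receptor (r = 0.98, and 0.96 and 0.84 within the runs), Ppp1cc (0.97, 0.95 and 0.70) and Calb1 (0.97, 0.91 and 0.52). For Slc2a1 (S68135_s) they were RT1-DMa (0.97, 0.92 and 0.76), Ifitm10 (0.96, 0.88 and 0.30) and Rpl13a (0.94, 0.85 and 0.74). The other probe sets of RT1-DMa and Rpl13a correlated with Slc2a1 at 0.20 and 0.44. For Slc2a3 (D13962_g) they were Ndufa9 (0.92, 0.54 and 0.55), Slc6a2 (0.91, 0.11 and 0.63) and Sod2 (0.91, 0.18 and 0.40). For Pdk1 they were Idh2 (0.94, 0.51 and -0.43), Ptpn21 (0.94, 0.37 and -0.48) and Sfpq (0.91, 0.67 and -0.01). The other probe sets of Idh2 and Sfpq correlated with Pdk1 at 0.26 and 0.74.

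Markers of the cells that carry these genes were read beside them. Of 14 vessel genes, 9 were on the array and 4 were tested, and their summed level ranged from 1139 at 18 h to 1505 at 36 h. The brightest was Acta2, at 313, and Abcb1a, an exporter of the blood-brain barrier, read 27.6. Of 10 oligodendrocyte genes, 7 were tested, led by Mobp at 16703, with a sum of 33685 to 38518, and of 10 astrocyte genes, 8 were tested, led by Glul at 20235, with a sum of 46613 to 56450.3.

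Neuronal genes (7 of 12 tested, led by Gap43 at 7136) summed to between 13747 at 18 h and 17389.5 at 42 h, and neighbouring hypothalamic neurons (8 of 11 tested, led by Oxt) to between 5820 at 30 h and 8725 at 18 h. Choroid plexus and ependymal genes (5 of 8 tested, led by Igf2 at 3656) summed to 3695 to 5421, microglial genes (4 of 10 tested, led by C1qb at 321) to 855 to 1113, and SCN peptides (4 of 8 tested, led by Sst at 5541) to 8338 at 42 h and 11827 at 12 h at the extremes. At 18 h, the lowest pool of Slc16a1 in D63834 but not in rc_AI145680_s, whose lowest was 12 h, the vessel and neuronal sums were at their lowest and that of neighbouring hypothalamic neurons at its highest. The part of this in the course of D63834 was not tested. No marker gene passed the test for rhythm, phase or day.

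Of the 47 tested marker genes, 26 (55.3%) were called between the runs, near the 48.4% of all tested probe sets. Those called higher in the repeat were Kdr, Acta2, Slc1a3, Fabp7, Mog, Mal, Ugt8, Snap25, Nefm, Map2 and Gap43, and those called lower were Avp, Sst, Tagln, Aqp4, S100b, Aldh1l1, Glul, Cnp, Cd74, C1qb, Ttr, Igfbp2, Nefh, Pomc and Npy. Both directions occurred within the vessel, astrocyte, oligodendrocyte and neuronal lists, in readings of the same pools.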

How the data were processed

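SCN RNA pools of 5 rats at 8 time points were read on 18 rat U34A arrays. The deposited values are probe set intensities on a linear scale, which the authors had already scaled to a common trimmed mean per array, as the values show. The summarising software is not given in the sources used here. Precision is limited by the number of arrays.

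Intensities below 12.1, the 10th percentile of the table, were set to it, and log2 was taken. Arrays a and b, and then the runs, were averaged to 8 pool means, on the assumption that a, b and the technical repeat read the same pool. Of 8799 probe sets, 59 are controls, 7006 have 1 gene symbol, 308 several and 1426 none. Symbols come from the platform annotation, and 6985 of the 7006 matched RefSeq by gene number, with 0 symbols changed. The 4370 probe sets above the median level (intensity 121) were tested with limma 3.58.1 in R 4.3.3: cosine and sine of 24 h, a day term, and repeat minus first run, with Benjamini-Hochberg adjustment over all of them. The rhythm and day fits were tested on simulated data, with 100 changes of 0.5 and 100 of 1 on the log2 scale. In these data 5 of 4170 unchanged probe sets were called rhythmic. For day 2 against day 1, 17% of differences of 0.5 and 71% of differences of 1 were recovered. The test of repeat minus first run was not tried on simulated data. Differences between the rats of a pool cannot be seen in these values.

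The members and the gene lists were chosen with earlier results of these data known. Genes named were all members, the 3 genes most alike to each by r, of each metabolic list those past a threshold and the 2 with the smallest rhythm p, and of each marker list the brightest and those past a threshold. Vip, Penk, Nmu, Abcb1a, Slc2a2, Pdp1, Pdp2 and Rasl11b were named outside this rule, after their values were seen. Other scalings, filters, floors, single runs and left-out pools were tried.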

Additional observations from a re-analysis of the deposited data

Results flagged for a closer look

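Of 20 sets of 8 or 10 arrays, 1 per probe set and run, 5 held a reading that stood apart from all others by Dixon's test. With normally distributed values chance does this in about 1 of 20 sets. That rate does not hold for sets with readings at the floor, as in those of Slc2a3 (D13962) and Pdk4. Slc2a3 (D13962) read 25.3 at 18 h of the first run and 30.3 at 36 h of the repeat, both at a level where many arrays lie at the floor. Slc16a1 (D63834) read 203 at 18 h of the first run, where the repeat of that pool, 657, was also the lowest of its run. Slc16a1 (rc_AI145680_s) read 54.3 at 12 h of the first run, where the repeat read 439. Pdk4 read 78.2 at 36 h of the repeat, where the first-run arrays of that pool read 15.0 and 22.1. All other repeat arrays lay at the floor for Pdk4, so any reading above it would have stood apart.

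In 2 of 16 contrasts compared between days, the phases differed in opposite directions on the first and second day in both runs. Independent random signs for the days and runs would give about as many. The share over all tested probe sets was not counted, and the difference between days was not tested. For Slc2a1 (M13979), CT 12 minus CT 0 was -0.85 on day 1 and 0.33 on day 2, on the log2 scale of the pool means. For Pdk1 it was 0.42 on day 1 and -0.30 on day 2.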

How the results depend on the processing

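The counts of members called for rhythm, for either phase difference and for the day stayed at 0 under all alternatives run (22 for the day, 23 for each of the others): quantile or median scaling, other floors or a pseudocount of 50, other level filters, limma with trend and robust variance, arrays a or b alone, either run alone, a day term, single arrays with the pool as a random block, each pool left out, and, added after seeing the data, without the 3 arrays with bright hybridisation controls, as pool means or as single arrays with the run as a term. For Pdk2 (U10357_g) the amplitude ranged from 0.18 to 0.32 and CT 12 minus CT 0 from 0.33 to 0.61, with adjusted p from 0.417 to 0.995 for the latter. The day difference of Slc16a1 ranged from 0.02 to 0.66 for D63834 and from 0.23 to 1.00 for rc_AI145680_s, lowest without the 3 bright arrays and highest in the first run alone. Between the runs 3 to 5 members were called over 18 alternatives, and 4 to 5 when a pool was left out. Both Slc16a1 sets kept their call in every alternative in which they were tested, 18 for D63834 and 17 for rc_AI145680_s. Slc2a1 (S68135_s) lost its call under median scaling (-0.19), without arrays b (-0.29) and without the 3 bright arrays (-0.18), and Pdk2 (U10357_g) under median scaling (-0.25). Slc2a1 (M13979) gained one without the 18 h pool (-0.43), the 36 h pool (-0.40) or the 3 bright arrays (-0.48), and Pdk2 (U10357) without the 0 h pool (-0.33). Under median scaling the run difference of Pdk2 (U10357) turned from -0.28 to 0.0179, a setting that moves all probe sets up in the repeat. Slc2a3 (D13962) and Pdk4 lie too close to the floor for a test.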
